A study of Mus musculus with 6 samples.

Results

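The tables of 2 Drop-seq libraries from spinal cords of vehicle-treated SOD1-G93A mice held a small set of barcodes rich in skeletal muscle RNA. Drop-seq catches cells in droplets with barcoded beads and labels every captured RNA molecule with its own short tag, the unique molecular identifier (UMI), so that a UMI count stands for molecules. A barcode was taken as a member when it had at least 200 detected genes, at most 20% of its UMIs from mitochondrially encoded genes, and at least 10 UMIs summed over Myl1, Acta1, Tnnc2, Tnnt3, Ckm, Mylpf, Myh4, Pvalb, Tnni2 and Tpm2, called the rule genes below. The members were thus chosen by their measured UMI counts of muscle genes. These limits gave 70 members among 3360 retained barcodes and 21919 barcodes in all. Of the members, 69 came from the 2 SOD1-Veh libraries and 1 from a SOD1-Nec library.

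The study compared 3 groups of 2 libraries each. WT-Veh libraries came from wild-type mice given vehicle, SOD1-Veh libraries from mice of the SOD1-G93A genotype, a model of amyotrophic lateral sclerosis, given vehicle, and SOD1-Nec libraries from SOD1-G93A mice given Necrostatin-1s, which blocks the kinase RIPK1. In all groups the cord was dissociated with Accutase, cleared of myelin and passed over an OptiPrep and Hibernate A gradient to enrich living cells. The labels give no age, no promoter of the transgene and no number of animals per library, so every p-value below measures the spread between these libraries, which may be technical.

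Skeletal muscle fibres are long cells with many nuclei, filled with sarcomeres in which myosin of the thick filaments pulls on actin of the thin filaments. Calcium released from the sarcoplasmic reticulum binds troponin C, which moves tropomyosin and opens the thin filament to myosin. Fast and slow fibres use different genes for nearly each of these proteins, so that the set of isoforms present tells which kind of fibre an RNA came from. A spinal cord has no skeletal muscle of its own; its motor neurons, which degenerate in this model, send axons out to muscle.

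Total depth was alike across the 6 libraries, at 1508618 to 1767205 UMIs each. Sod1, the gene named by the transgene, stood at 247 and 180 CPM (UMIs of a gene scaled to a total of 1000000) in the retained non-member barcodes of WT-Veh and at 3702 to 5846 CPM in those of the 4 SOD1 libraries, as the genotype labels say. The tables do not separate mouse from human SOD1. Any 2 libraries shared 4 to 9 barcodes, of which 1 was retained in both and 0 were members. A barcode found in several tables counts once for each pair of tables. Between tables of the same number, all 32 such matches held identical counts, most at 1 to 3 UMIs and the largest at 1688. Between tables of different number 0 of 49 matches did. One of the 32 matches, a barcode with over 20% mitochondrial UMIs, carried 12 rule-gene UMIs in both WT-Veh 2 and SOD1-Veh 2. In SOD1-Veh 2, 7 of the 52 members had an undetermined base in their barcode, and no 2 members of a library differed by 1 base only.

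Member counts differed between the SOD1-Veh libraries. SOD1-Veh 1 held 17 members among 399 retained barcodes, 4.26% (exact Clopper-Pearson 95% interval 2.50 to 6.73%), and SOD1-Veh 2 held 52 among 437, 11.9% (9.02 to 15.3%). No member was found among 515 and 554 retained barcodes of WT-Veh, which allows shares of up to 0.583% and 0.542%, nor among 794 of SOD1-Nec 2, which allows up to 0.378%. All intervals and limits cover counting error only. The rule was written with this distribution over libraries known, so the counts are a description and were not tested between groups.

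The single member outside SOD1-Veh, in SOD1-Nec 1, went against the muscle label. It was the deepest barcode of its library, with 43509 UMIs and 8044 genes, and its 14 rule-gene UMIs were 12 of Pvalb and 2 of Tnnt3, 0.0322% of its total. It had 0 UMIs of Myl1, Acta1, Tnnc2, Ckm and Myh4. It carried 121 UMIs of Ccdc153, 64 of Rsph1, a part of the radial spoke of motile cilia, and 41 of Foxj1, a regulator of motile cilia; these genes were chosen after its values were seen. It is left out of all levels below, which describe the 69 members of SOD1-Veh.

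In those 69 the leading muscle markers were present together. The rule genes made up a median of 22.2% of a member's UMIs in SOD1-Veh 1 (range 3.92 to 31.0%) and 20.4% in SOD1-Veh 2 (5.43 to 30.9%). All 10 rule genes were seen together in 14 of 17 and in 42 of 52 members. The smallest members held 13, 22, 25, 26 and 26 rule-gene UMIs, and the retained barcodes next below the limit held 6, 6, 4, 4 and 4, so that between 6 and 13 UMIs the SOD1-Veh libraries had no retained barcode.

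Members resembled the other retained barcodes in size. Their median was 850 and 682 UMIs and 381 and 346 genes, against 725 and 704 UMIs in the other retained barcodes of the same libraries. The mitochondrial share was 8.67% and 10.1% at the median, against 6.23% and 6.96% in the others. In SOD1-Veh 1 a single barcode of 6509 UMIs held 39.8% of all rule-gene UMIs in members, whereas in SOD1-Veh 2 the largest share of any barcode was 10.4%.

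**Figure D1:**
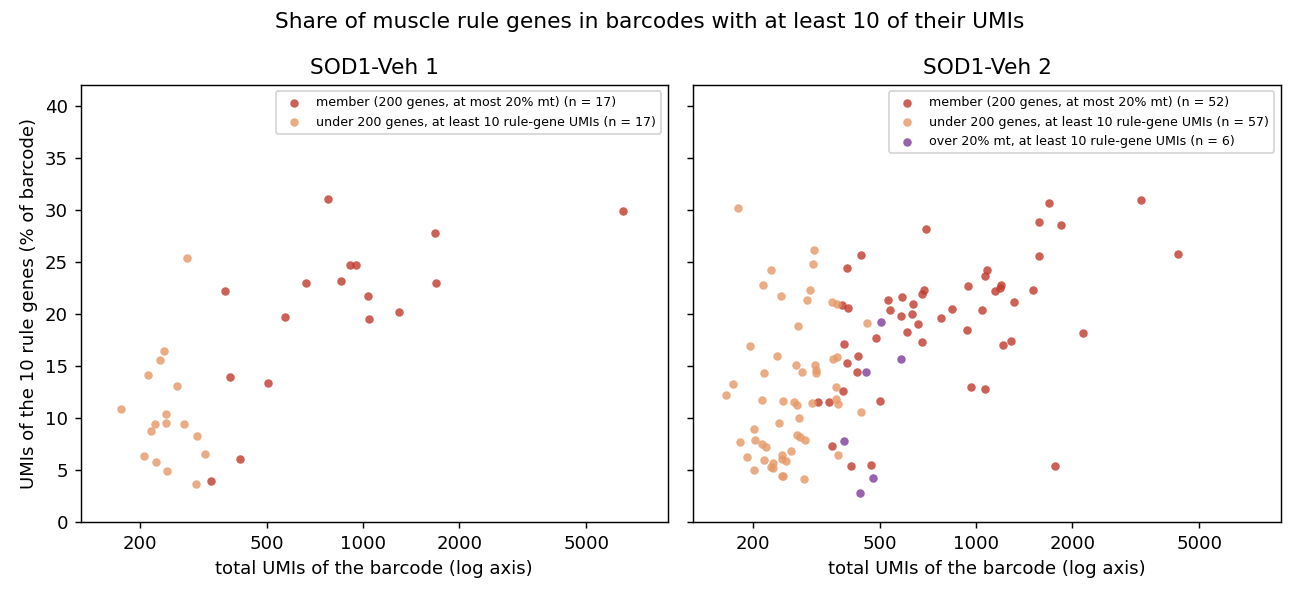
Share of UMIs from the 10 rule genes (vertical axis, percent) against total UMIs of a barcode (horizontal log axis) in SOD1-Veh 1 and SOD1-Veh 2, for every barcode with at least 10 rule-gene UMIs; colours give members, barcodes under 200 genes and barcodes over 20% mitochondrial (mt) UMIs. Members reach 31.0% and 30.9%, and the barcodes under 200 genes extend the cloud to smaller totals and lower shares.

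Within each library the larger members were richer in muscle RNA. In SOD1-Veh 1 the 8 largest members, of 908 to 6509 UMIs, drew 26.2% of their pooled UMIs from the rule genes and the 8 smallest 18.6%. In SOD1-Veh 2 the 26 largest drew 22.6% and the 26 smallest 17.4%. The RNA of other cell types ran the other way: Mbp, a myelin protein gene, stood at 3047 CPM in the larger and 7494 CPM in the smaller members of SOD1-Veh 1, and at 5329 and 9989 CPM in those of SOD1-Veh 2. Haemoglobin genes took 0.788% of the UMIs of the larger and 1.77% of the smaller members of SOD1-Veh 1. For SOD1-Veh 2 these shares were 1.25% and 1.82%. Mitochondrial shares were also higher in the smaller members, 9.69% against 7.94% and 11.5% against 9.37%.

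Levels of the rule genes are given next as a description, because the rule used them. CPM was taken over the pooled members and without length scaling, so genes are compared across barcodes and not with each other.

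Among thick-filament genes, Myl1, the fast alkali light chain of myosin, stood at 43260 CPM in SOD1-Veh 1 members (exact Poisson 95% interval 40420 to 46250) and 34720 CPM in SOD1-Veh 2 members (33100 to 36390). In the other retained barcodes of the same libraries it stood at 4.79 and 69.0 CPM. Mylpf, the fast regulatory light chain, stood at 27470 and 22320 CPM in members. Myh4, the myosin heavy chain of type IIB fibres, the fastest fibres of the mouse, stood at 13030 CPM (11500 to 14720) and 14290 CPM (13250 to 15370), and was seen in 16 of 17 and 50 of 52 members. For both light chains the levels of the pair of libraries lay further apart than counting error, and for Myh4 the intervals overlapped.

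Thin-filament genes set the members apart as well. Acta1, skeletal muscle actin, stood at 40350 and 32110 CPM in members against 26.3 and 52.4 CPM in the other retained barcodes. Of the fast troponins, Tnnc2, which binds calcium, stood at 28220 and 27260 CPM, Tnnt3, which ties the complex to tropomyosin, at 32430 and 28030 CPM, and Tnni2, the inhibitory subunit, at 10930 and 10050 CPM. Tpm2, beta-tropomyosin, stood at 8221 and 7092 CPM. Each of these genes had a UMI in at least 15 of the 17 and 48 of the 52 members.

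The last rule genes act on energy and calcium. Ckm, muscle creatine kinase, which regenerates ATP from phosphocreatine, stood at 24210 and 20750 CPM in members. Pvalb, the calcium buffer of fast fibres and also of some neurons, stood at 16990 and 16210 CPM. Pvalb was the one rule gene with a sizeable level in libraries without muscle barcodes. Summed over every barcode, the rule genes gave 77 and 84 UMIs for WT-Veh. The sums were 5658 and 14009 for SOD1-Veh and 101 and 68 for SOD1-Nec. Pvalb made up 81.8% and 61.9% of them in WT-Veh and 73.3% and 73.5% in SOD1-Nec, but 7.71% and 7.85% in SOD1-Veh. Without Pvalb the sums were 14 and 32, 5222 and 12910, and 27 and 18 UMIs. Of the 32 in WT-Veh 2, 12 were in the barcode that it shares with SOD1-Veh 2.

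The upstream sequences of 3 rule genes are shown, because the genes are found together in the members; they were picked as windows that hold motifs known from muscle genes. Each is the 250 bases before the RefSeq start, 5′ to 3′ on the gene's strand, from the RefSeq table on build GRCm38.p6, which is not the mm9 build named for the files. Capitals mark the E-box CAGCTG, which binds myogenic factors such as MyoD, the MEF2 motif, and the CArG box, which binds serum response factor.
Myh4 (chr11:67237562-67237811, plus strand, E-box, MEF2 and CArG box): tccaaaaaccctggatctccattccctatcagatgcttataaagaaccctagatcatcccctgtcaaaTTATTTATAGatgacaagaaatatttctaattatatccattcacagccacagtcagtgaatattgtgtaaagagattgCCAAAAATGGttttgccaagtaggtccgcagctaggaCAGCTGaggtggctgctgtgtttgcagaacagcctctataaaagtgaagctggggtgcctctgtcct
Acta1 (chr8:123894776-123895025, minus strand, E-box and CArG box): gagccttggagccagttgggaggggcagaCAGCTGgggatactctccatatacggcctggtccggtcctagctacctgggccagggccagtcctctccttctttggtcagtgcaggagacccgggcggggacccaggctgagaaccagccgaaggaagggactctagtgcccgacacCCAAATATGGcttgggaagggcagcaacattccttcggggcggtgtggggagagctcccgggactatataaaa
Pvalb (chr15:78206401-78206650, minus strand, MEF2): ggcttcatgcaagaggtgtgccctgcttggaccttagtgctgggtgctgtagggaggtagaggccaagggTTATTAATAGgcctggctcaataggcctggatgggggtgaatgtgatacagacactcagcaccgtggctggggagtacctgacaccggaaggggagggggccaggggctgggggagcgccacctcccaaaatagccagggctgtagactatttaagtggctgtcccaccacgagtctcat

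Of the 10 rule genes, 8 matched the promoter table, with 9 starts. The E-box, read on both strands, was in 6 of the 9 windows, MEF2 in 2 and the CArG box in 2. The window of Tnnc2 and that of the other Pvalb start (chr15:78204238-78204487) held none of the motifs. Over all 32851 windows of that length the shares were 13%, 2.92% and 1.47%. Over the 90 windows of 68 muscle genes outside the rule they were 35.6%, 14.4% and 6.67%. The motifs do not overlap in the printed sequences, and a match describes letters only.

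Muscle genes that the rule did not name were followed with lists of sarcomere, calcium, energy and membrane genes. Of 92 such genes written, 90 were in at least 1 of the SOD1-Veh tables and 70 of these had a UMI in a member. Of the 85 in both tables, 54 had a higher CPM in members than in the other retained barcodes in both libraries, where 7.33% of all 17042 genes did. Only 6567 of the 17042 had a UMI in members, and a gene without one could not be higher there. The muscle genes came from the same barcodes that the rule picked, so their count describes the members and is no test. Together the muscle lists outside the rule made up 84320 and 79940 CPM of the members and 1800 and 1606 CPM of the others.

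The isoforms were those of fast fibres. Of 12 fast-fibre genes outside the rule, 11 had a UMI in members. Tpm1, alpha-tropomyosin, stood at 24610 and 22320 CPM against 108 and 121 CPM in the other retained barcodes. Atp2a1, the calcium pump of fast sarcoplasmic reticulum, stood at 5564 and 4963 CPM against 4.79 and 4.76 CPM. Eno3, muscle enolase, stood at 5765 and 5123 CPM, and Myoz1, a Z-disc protein of fast fibres, at 3509 and 2592 CPM.

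Slow-fibre genes were nearly absent. Of 11 listed, 9 had 0 UMIs in all members, among them Myh7, the slow myosin heavy chain. Mybpc1, a myosin-binding protein, had 9 UMIs and Tpm3, which many cell types use, had 6, all in SOD1-Veh 2. With 19949 and 49772 UMIs in members, a gene at 0 in SOD1-Veh 1 still allows up to 3 counts, so low levels of slow genes were not detectable at this depth. Mb, myoglobin, the oxygen store of slow and oxidative fibres, had 0 UMIs in members of both libraries.

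The other fast myosin heavy chains were nearly absent too. Myh4 had 260 and 711 UMIs, whereas Myh1, of type IIX fibres, had 2 and 0, and Myh2, of type IIA fibres, had 0 in the table that lists it. These genes are close copies of each other, and how the counting treated reads that match several of them is not given in the sources used here, so the split among them is uncertain. Of the developmental isoforms, Actc1, cardiac actin, had 6 UMIs and Myh8, perinatal myosin, had 1, both in SOD1-Veh 2.

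**Figure D2:**
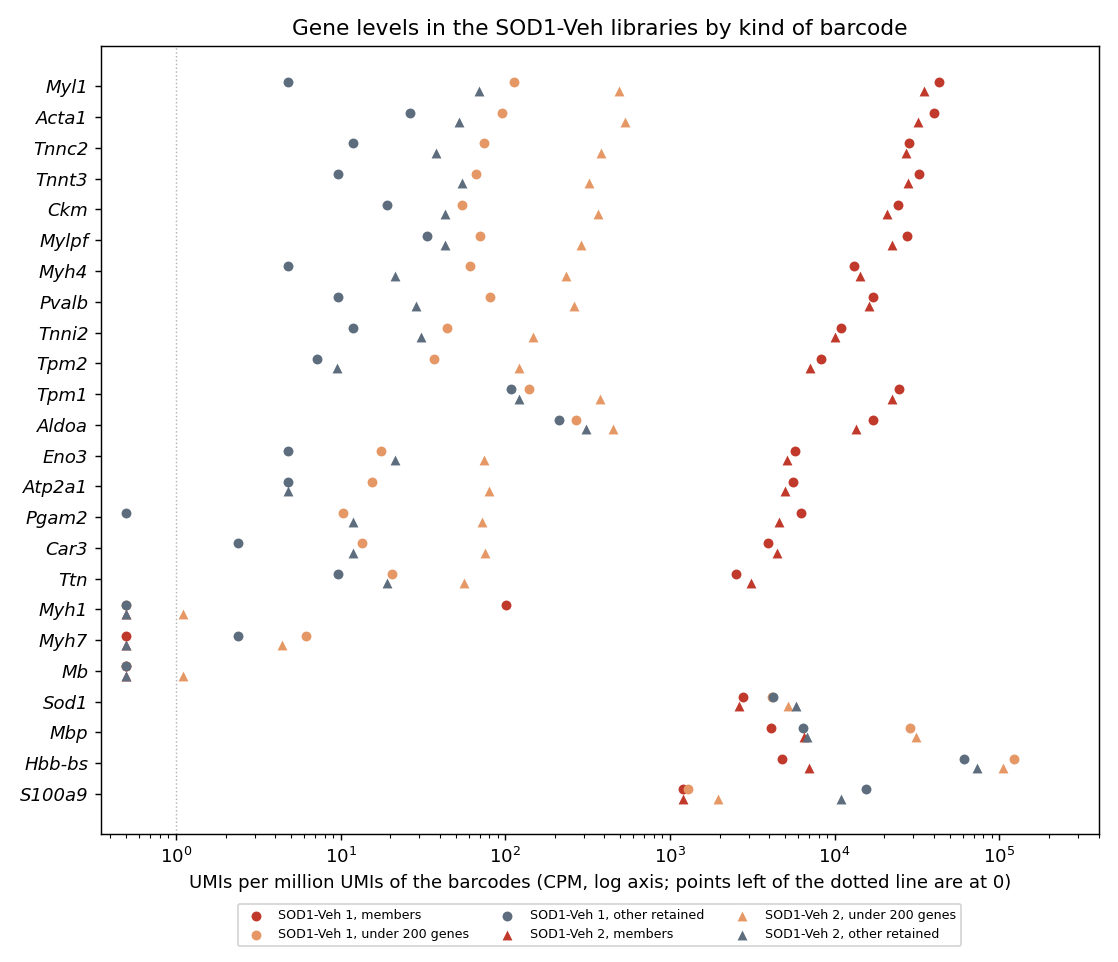
CPM (horizontal log axis) of the rule genes, other muscle genes and markers of other cells in members, barcodes under 200 genes and other retained barcodes of SOD1-Veh 1 (circles) and SOD1-Veh 2 (triangles); points at 0 are drawn left of the dotted line. Apart from Myh1, the fast-fibre genes lie to the right of the other barcodes in members of both libraries, while Myh7 and Mb are at 0 there. Myh1 is at 0 in members of SOD1-Veh 2.

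Genes of the sarcomere's scaffold followed the contractile genes. Of 22 genes of the Z disc and titin filament, 18 had a UMI in members and 16 were higher than in the other retained barcodes in both libraries. Ttn, titin, which spans a sarcomere from Z disc to M band, stood at 2506 CPM (1860 to 3304) and 3094 CPM (2625 to 3623). Neb, nebulin, which lies along the thin filament, stood at 1203 CPM (771 to 1790) and 2210 CPM (1816 to 2664), so its level in SOD1-Veh 2 was above the interval of SOD1-Veh 1. Xirp2 stood at 1454 and 2009 CPM, and Tcap, which caps titin at the Z disc, at 1353 and 1748 CPM.

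Excitation and calcium-release genes were present too. Of 14 listed, 12 had a UMI in members, with summed levels of 2707 and 3235 CPM against 16.8 and 23.8 CPM in the others. Trdn, triadin, which anchors calsequestrin at the release channel, stood at 1153 and 1205 CPM. Ryr1, the release channel itself, had 3 and 13 UMIs. Jph1, which joins the reticulum to the surface membrane, had 4 and 22, and Hrc, a calcium-binding protein of the reticulum, had 7 and 25.

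Energy genes were higher in members than in the other barcodes as a group. All 7 glycolysis genes were higher in members than in the other retained barcodes in both libraries, with Aldoa, aldolase A, at 17040 and 13460 CPM against 211 and 309 CPM. Gapdh stood at 4211 and 4862 CPM, and Pgam2, the muscle phosphoglycerate mutase, at 6266 and 4601 CPM. All 15 nuclear genes of oxidative phosphorylation were higher as well, with a sum of 24560 and 18580 CPM against 4956 and 5708 CPM. The muscle forms of cytochrome oxidase subunits were among the energy genes, Cox8b at 4060 and 2712 CPM and Cox6a2 at 3208 and 2532 CPM. Slc25a4, which exchanges ADP and ATP across the mitochondrial membrane, stood at 4963 and 4782 CPM. Car3, the muscle carbonic anhydrase, stood at 3960 and 4440 CPM against 2.39 and 11.9 CPM.

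Membrane and small heat shock genes were higher in members as sums, and atrophy genes were lower. The membrane and repair genes summed to 1153 and 1266 CPM in members against 278 and 214 CPM in the other retained barcodes. For small heat shock genes the sums were 2055 and 2351 CPM against 357 and 640 CPM. Of the 9 genes listed for both libraries in each list, 4 and 5 were higher in members of both. Of 10 membrane and repair genes, 9 had a UMI in members; Tmem38a, a potassium channel of the reticulum, had 14 and 22 UMIs and Sgca, a sarcoglycan, 3 and 8. Among small heat shock genes, Cryab stood at 1103 and 1246 CPM against 278 and 578 CPM, and Hspb6 had 6 and 25 UMIs. The 15 atrophy genes summed to 3559 and 3697 CPM, below the 3956 and 4578 CPM of the other retained barcodes. Trim63, a muscle ubiquitin ligase induced in atrophy, had 5 and 9 UMIs in members and 0 in the other retained barcodes of every library, with no vehicle-treated wild-type muscle to set it against.

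Genes known to rise in denervated muscle were hardly seen. Of 15 written, 11 were in at least 1 of the SOD1-Veh tables and 4 of these had a UMI in members, Gadd45a with 2 and 2 and Musk, Rapsn and Cdkn1a with 1 each. The list summed to 3 and 4 UMIs in members, 150 and 80.4 CPM, against 402 and 416 CPM in the other retained barcodes. Those barcodes are not muscle, so they give no reference level for innervated fibres. Members held 19949 and 49772 UMIs in all, so low levels of these genes were not detectable. Chrna1 and Myog, both prominent in denervated fibres, and Pax7, which marks satellite cells, are not among the genes listed in these tables, and their levels were not analysed here. Of the satellite-cell and myogenic list, Mef2c, a partner of the myogenic factors that microglia also express, had 19 and 32 UMIs and Myf6, a myogenic factor of mature fibres, had 3 and 4.

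Most lists of blood and cord cells were lower in members than in the other retained barcodes. None of the 6 cardiac genes listed had a UMI. The 8 microglia genes summed to 150 and 342 CPM in members against 6560 and 5173 CPM in the other retained barcodes. The 7 neutrophil genes summed to 2607 and 2953 CPM against 41700 and 32220 CPM, and the 7 erythroid genes to 10230 and 14140 CPM against 141400 and 172900 CPM. Of 6 oligodendrocyte genes, Mog, Mag and Cldn11 were at 0, and the sum was 2105 and 2351 CPM against 10800 and 13600 CPM. Neuron genes had 1 and 4 UMIs, B cell genes 0 and 4, monocyte genes 2 and 3, and endothelial genes 0 and 1. Astrocyte genes summed to 501 and 884 CPM against 1230 and 1247 CPM.

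Genes of cell types that lie beside fibres in a muscle did not move one way. Of the Schwann cell genes, Prx, Sox10 and Pmp22 were at 0 in members and the list's UMIs were those of Mbp, which oligodendrocytes share, at 4110 CPM (3269 to 5102) and 6510 CPM (5820 to 7259). In the other retained barcodes Mbp stood at 6383 and 6815 CPM, so that its level in SOD1-Veh 2 members was within counting error of theirs. Smooth muscle and pericyte genes had 2 UMIs and 1 UMI, all of Rgs5. Fibroblast and tendon genes were higher in members, with 9 and 26 UMIs, 451 and 522 CPM against 127 and 19.0 CPM in the other retained barcodes; these were Col1a2 with 4 and 13, Col1a1 with 3 and 13, and Dcn with 2 and 0. Lum, Pdgfra and Scx were at 0.

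**Figure D3:**
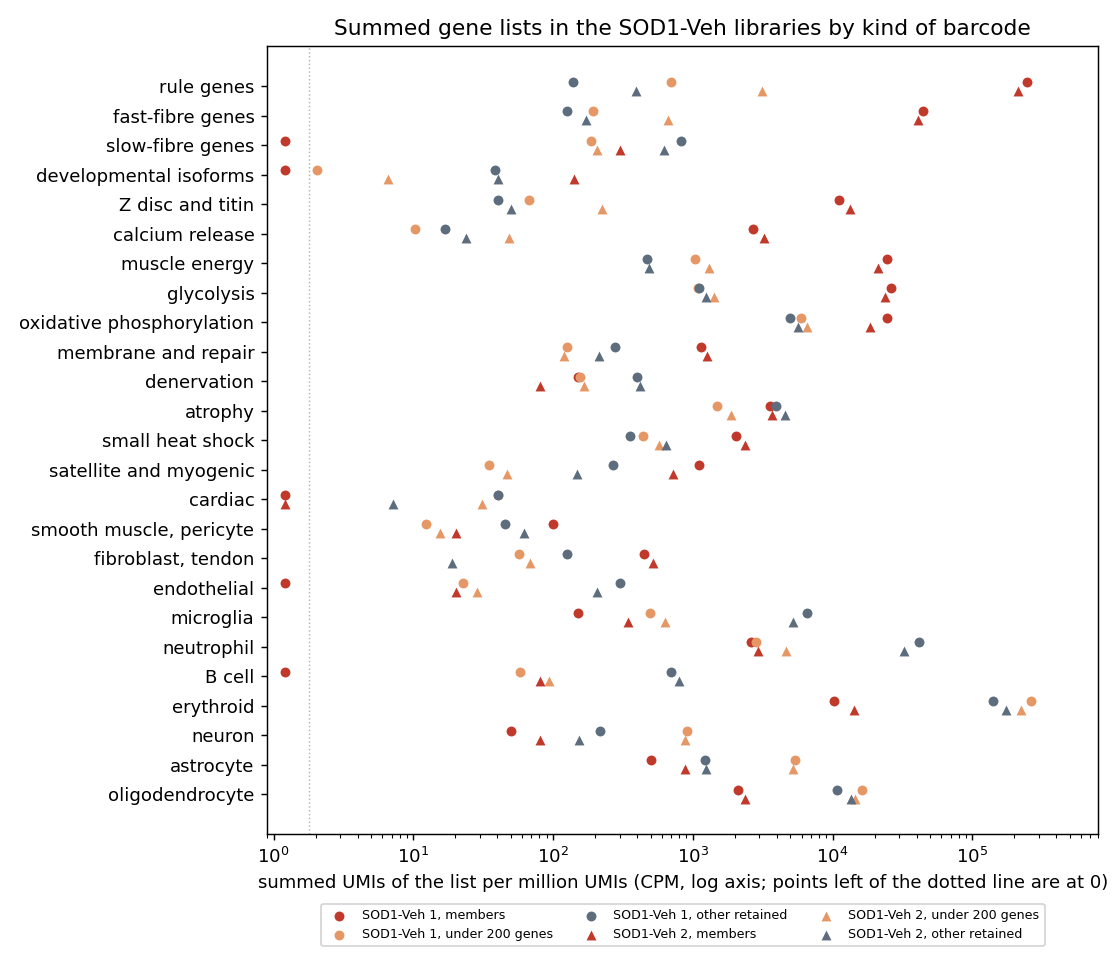
Summed CPM (horizontal log axis) of each gene list in members, barcodes under 200 genes and other retained barcodes of SOD1-Veh 1 (circles) and SOD1-Veh 2 (triangles), with sums of 0 left of the dotted line. The lists of fast-fibre, Z-disc, calcium-release and muscle energy genes lie far to the right in members, while slow-fibre genes and the lists of microglia, neutrophil and erythroid genes lie to the left of the other retained barcodes.

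Sod1 itself stood at 2757 CPM (2077 to 3589) and 2632 CPM (2201 to 3123) in members, with a UMI in 13 of 17 and 42 of 52. In the other retained barcodes of the same libraries it stood at 4202 and 5846 CPM, and in barcodes under 200 genes at 4165 and 5198 CPM, so members were lower in both libraries. They were still above the 247 and 180 CPM of WT-Veh barcodes. Malat1, a nuclear long non-coding RNA, stood at 4261 and 5123 CPM in members against 15250 and 11920 CPM in the other retained barcodes. Fth1, ferritin heavy chain, stood at 11830 and 12080 CPM against 9874 and 10380 CPM. Sepw1, a selenoprotein, stood at 3459 and 3094 CPM against 100.5 and 245 CPM.

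The members of the 2 libraries were alike in composition. Of 162 genes with at least 50 UMIs over both sets of members, mitochondrial genes left out, 131 had CPM within 1.5 times of each other and 160 within 2 times. Pearson's r of log2(CPM + 1) over these genes was 0.957, a description across genes, which are not independent. The rule genes took similar shares of their sum, with Myl1 at 17.7% and 16.3%, Acta1 at 16.5% and 15.1% and Myh4 at 5.32% and 6.71%. The predicted gene Gm26924 differed most among genes higher in SOD1-Veh 2, at 17490 and 36810 CPM, a ratio of 2.10.

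Shares of single members covered a wide range. Among the 12 and 36 members with at least 100 rule-gene UMIs, Myh4 took 1.51 to 12.6% of the rule-gene UMIs in SOD1-Veh 1 and 0 to 18.4% in SOD1-Veh 2. In SOD1-Veh 1 the lowest member had 7 Myh4 UMIs among 465 (exact 95% interval 0.607 to 3.08%) and the highest had 33 among 261 (8.87 to 17.3%). In SOD1-Veh 2 the lowest had 0 among 113 (up to 3.21%) and the highest 23 among 125 (12 to 26.3%). These are the extremes of the 12 and 36 members, picked by the shares themselves, so the intervals show the counting error of each and are no test of a difference. Acta1 took 8.04 to 24.1% and 5.98 to 23.2%, and its share ran against that of Myh4, with Spearman's rho of -0.76 over 12 members and -0.70 over 36. Both shares are parts of the same sum, and the members share a library, so the rho is a description. Gm26924 took 0.179 to 8.65% of all UMIs of a member in SOD1-Veh 1 and 0 to 33.6% in SOD1-Veh 2.

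Muscle RNA was also found in barcodes that the rule left out for having under 200 genes. SOD1-Veh 1 had 17 and SOD1-Veh 2 had 57 such barcodes with at least 10 rule-gene UMIs, and the other 4 libraries had 0. They held 438 of 674 and 1991 of 2841 rule-gene UMIs of all barcodes under 200 genes, at a median share of 9.46% and 11.5% of their UMIs. Their median mitochondrial share was 22.3% and 21.6%. Members held 86.4% and 75.6% of all rule-gene UMIs of their libraries.

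The UMIs of all barcodes under 200 genes, 903825 to 1099007 per library, were summed and compared between groups with the quasi-likelihood test of edgeR, adjusted by Benjamini-Hochberg over all 6052 genes tested. These barcodes took no part in the rule, but they come from the libraries in which the members were found, so the result is not independent of how the members were chosen. The rule genes were also chosen with earlier results of these data known. All but Pvalb passed the filter on low counts, which drops genes with too few UMIs, only through SOD1-Veh. The direction of their calls was thus fixed in advance, and the p-values of the rule genes are a description. All 10 rule genes were higher in SOD1-Veh than in WT-Veh, and all 10 were lower under Necrostatin-1s than under vehicle, at adjusted p-values of 2.21e-04 to 9.39e-03 and 5.18e-04 to 2.65e-02. With DESeq2, 4 of the 10 lost their call in both comparisons, at adjusted p-values in the first of 0.858 for Tnnt3, 0.850 for Ckm, 0.901 for Myh4 and 0.0987 for Pvalb. Their DESeq2 adjusted p-values in the second were 0.434, 0.422, 0.469 and 0.290. Of all genes tested, 0.347% were called higher and 0.496% lower in the first comparison, 0.843% in either direction. In the second 3.4% were called higher and 0.892% lower, 4.3% in either direction. Both comparisons share the SOD1-Veh libraries, and no difference was tested between SOD1-Nec and WT-Veh.

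Myl1 had 0 UMIs in both WT-Veh libraries. SOD1-Veh held 109 and 441 and SOD1-Nec 0 and 1. SOD1-Veh was thus at least 189-fold higher than WT-Veh, taking 3 counts over both WT-Veh libraries as the floor, at an adjusted p of 2.21e-04 in edgeR. Myh4 had 0 UMIs in all 4 libraries of the other groups and 59 and 211 in SOD1-Veh, at least 92.6-fold higher than WT-Veh (adjusted p = 3.00e-04 in edgeR and 0.901 in DESeq2). Ckm and Tnnt3 were also at 0 in those 4 libraries, with 53 and 328 UMIs and with 64 and 293 UMIs in SOD1-Veh. Acta1 had 0 and 3, 92 and 484, and 2 and 1 UMIs in the order WT-Veh, SOD1-Veh, SOD1-Nec. For each of these genes the SOD1-Veh libraries lay above the other 4 without overlap, and SOD1-Veh 2 lay above SOD1-Veh 1.

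Pvalb differed least among the rule genes. It had 32 and 15 UMIs in WT-Veh libraries, 78 and 236 for vehicle-treated SOD1-G93A and 45 and 27 for SOD1-Nec, a log2 difference of 2.64 ± 0.47 (SE, n = 2 libraries a group, edgeR adjusted p = 9.39e-03) between SOD1-Veh and WT-Veh. Its call was lost in both comparisons without SOD1-Veh replicate 2, where the log2 differences were 1.60 and -0.75. Tpm2, which smooth muscle and other cells also use, had 4 and 3 UMIs, 36 and 109, and 5 and 4, a log2 difference of 4.23 ± 0.60 (SE, edgeR adjusted p = 8.94e-04).

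Of 18 muscle genes outside the rule that could be tested there, 6 were called higher in SOD1-Veh than in WT-Veh, none lower. Over all genes tested, 0.347% were called higher and 0.496% lower. Tpm1 had 43 and 68 UMIs in WT-Veh libraries, 135 and 341 for vehicle-treated SOD1-G93A and 59 and 59 for SOD1-Nec, a log2 difference of 2.01 ± 0.40 (SE) at an adjusted p of 2.12e-02 in edgeR. Atp2a1 and Neb were at 0 in WT-Veh and SOD1-Nec, with 15 and 72 UMIs and with 11 and 27 UMIs in SOD1-Veh, so they were at least 29.9-fold and 13-fold higher than in WT-Veh. Ttn had 0 and 5 UMIs in WT-Veh libraries, 20 and 51 for vehicle-treated SOD1-G93A and 5 and 2 for SOD1-Nec. Cox8b and Eno3 were the others. Of the 6, only Tpm1 had enough UMIs outside SOD1-Veh to pass the filter on low counts. The rest passed only through SOD1-Veh, where they are high, so the direction of their calls was fixed by the filter and is a description. The median log2 difference of the 18 was 0.29 against -0.01 over all genes tested.

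The same 6 genes and Pygm, muscle glycogen phosphorylase, were called lower under Necrostatin-1s, 7 of 18, where 0.892% of all genes tested were. Apart from Tpm1 and Pygm, they passed the filter on low counts only through SOD1-Veh, so their direction was fixed by the filter. Pygm had 46 and 45 UMIs in WT-Veh libraries, 50 and 70 for vehicle-treated SOD1-G93A and 28 and 14 for SOD1-Nec, a log2 difference of -1.19 ± 0.32 (SE, edgeR adjusted p = 4.69e-02). Unlike the 6, Pygm was not called in SOD1-Veh against WT-Veh (edgeR adjusted p = 0.743), and its SOD1-Nec libraries lay below WT-Veh as well. The median log2 difference of the 18 was -0.53 against -0.02 over all genes.

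Other properties of these small barcodes moved with the groups. Mitochondrial genes took 25.3% and 28.3% of their UMIs in SOD1-Veh against 17.7% and 18.8% in WT-Veh and 18.0% and 10.8% in SOD1-Nec. Haemoglobin genes took 26.1% and 22.3% against 39.7% and 35.9% and against 39.6% and 57.5%. Their part in the muscle result was not tested. When the barcodes with at least 10 rule-gene UMIs were left out, 8 muscle genes were called in each comparison in place of 16 and 17, and without SOD1-Veh replicate 2, 9 in each.

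**Figure D4:**
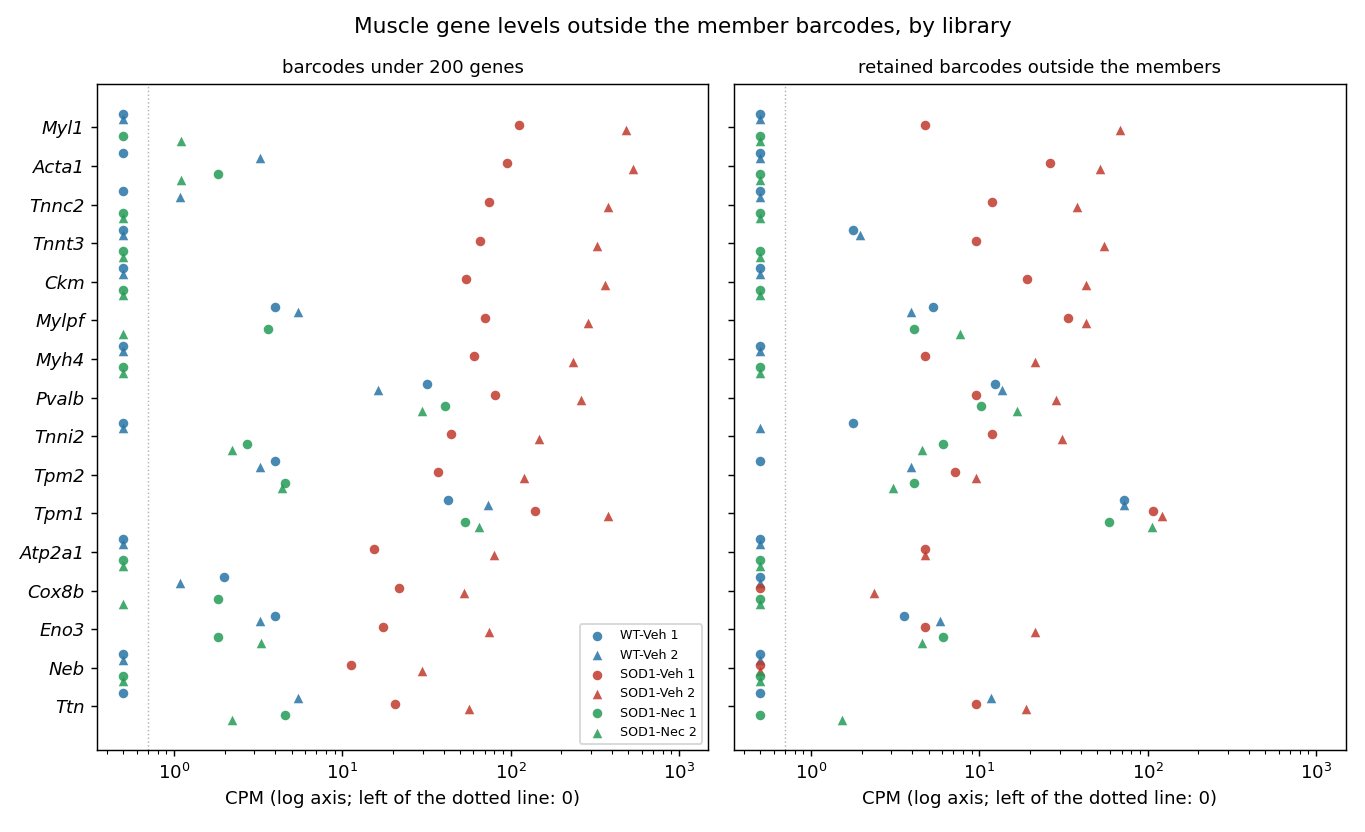
CPM (horizontal log axis) of the rule genes and 6 other muscle genes in barcodes under 200 genes (left) and in retained barcodes outside the members (right), with 1 point per library and values of 0 left of the dotted line. Below 200 genes both SOD1-Veh libraries (red) lie above the other 4 for each gene shown. Among retained barcodes they do not for each gene. Pvalb had 4 UMIs among 417859 in SOD1-Veh 1 and 7 among 563731 in WT-Veh 1. Cox8b is at 0 in SOD1-Veh 1, and Neb is at 0 in all 6 libraries.

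Retained barcodes outside the members carried a trace of the same RNA. Rule genes gave 58 and 164 UMIs there in SOD1-Veh, 139 and 390 CPM, against 21.3 to 32.2 CPM in the other 4 libraries. A rule-gene UMI was seen in 11.8% and 29.1% of these barcodes in SOD1-Veh and in 1.67 to 2.39% in the others. Median depths were 725 and 704 UMIs in SOD1-Veh and 526 to 658 in the others, so barcodes of at least 400 UMIs were thinned to 400. That left out 66 barcodes in each SOD1-Veh library and 97 to 219 in the others. The thinned shares were 4.43% (exact 95% interval 2.44 to 7.32%) and 17.2% (13.3 to 21.8%) in SOD1-Veh and 0.718 to 1.26% in the other 4. Only the share of SOD1-Veh 2 had an interval clear of all other libraries.

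In the test of these retained barcodes, 0 of 2 rule genes that passed the filter on low counts were called by edgeR in either comparison, where 0.126% (0.0562% higher, 0.0703% lower) and 0% of 7117 genes were called. The other 8 had too few UMIs to be tested, which includes Myl1 with 2 and 29 UMIs in SOD1-Veh and 0 in each of the other 4 libraries. Acta1 had 0 and 0 UMIs in WT-Veh libraries, 11 and 22 for vehicle-treated SOD1-G93A and 0 and 0 for SOD1-Nec, at least 14.1-fold higher than in WT-Veh, with an adjusted p of 7.21e-02 in edgeR. Mylpf had 3 and 2, 14 and 18, and 2 and 5 UMIs, a log2 difference of 2.98 ± 0.70 (SE, edgeR adjusted p = 0.123) from WT-Veh. Both genes passed the filter only through SOD1-Veh, where they are high. Their direction was thus fixed in advance, and these p-values are a description. Of 9 muscle genes outside the rule that were tested, 0 were called; at an unadjusted p below 0.05, 661 and 419 of all genes passed, and DESeq2 called 0 muscle genes, giving no adjusted p for Acta1 and Mylpf.

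The lack of a call among retained barcodes rests on the libraries and the filter used. Without WT-Veh replicate 1, Acta1 and Mylpf passed in both comparisons and 5 muscle genes were called in each. With every gene of at least 1 UMI tested, 7 and 5 muscle genes were called. All these calls include Acta1, a rule gene chosen with earlier results of these data known, so the counts are a description.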

How the data were processed

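Drop-seq libraries of mouse spinal cord were used, 2 per group. Each library has 1 table of UMI counts, with gene symbols in rows and barcodes of 12 bases in columns, which the authors deposited as whole numbers. The genome build is mm9 per the submitters' processing notes; sources used here do not give the aligner, the annotation or the treatment of reads that match several genes. Tables of replicate 1 list 18169 genes and those of replicate 2 list 18650, and 17042 are in all. No doublets were removed; Scrublet in scanpy 1.11.5 served for an alternative.

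Members and gene lists were chosen with earlier results of these data known. Levels are sums of UMIs over barcodes scaled to 1000000 (CPM). UMI sums of non-member barcodes were tested with the quasi-likelihood test of edgeR 4.0.16 in R 4.3.3 (TMM, filterByExpr, 6 libraries in 1 fit, group as the only term, Benjamini-Hochberg over all genes tested, calls at an adjusted p below 0.05). On simulated data with 4-fold changes, edgeR recovered 139 of 193 changed genes with 9 false calls in the retained barcodes (7117 genes), and 152 of 180 with 6 in barcodes under 200 genes (6052 genes). DESeq2 1.42.0 was an alternative.

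Replicate numbers come from the sample titles and name no shared animal or day. Genes named are the rule genes, Sod1, the 15 genes with most UMIs in members outside the rule, mitochondrial and ribosomal protein genes, up to 4 leading genes of each list, and up to 6 called muscle genes a comparison, plus Myh1, Myh2, Myh7, Ttn, Mb, Chrna1, Myog and Pax7; a gene that the rule also covers is not reported here. Genes named beyond this (Ryr1, Jph1 and list members given at 0, for example) were chosen after their values were seen.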

Additional observations from a re-analysis of the deposited data

Results flagged for a closer look

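Barcodes of at least 200 genes with over 20% mitochondrial UMIs entered neither the members nor the comparisons. In SOD1-Veh 2 the rule genes made up 0.305% of their UMIs, above the 0.0161% and 0.0228% of the WT-Veh libraries, which is why the value stands here. It rests on 411 rule-gene UMIs, of which 315 were in 6 barcodes with at least 10 each, at 20.6 to 29.4% mitochondrial UMIs. SOD1-Veh 1 stood at 0.0203% with 0 such barcodes, and the SOD1-Nec libraries at 0.0119% and 0.0109%. WT-Veh 2 had 1 such barcode, with 12 rule-gene UMIs; it is one of the 6, since both tables hold it with identical counts. Without it WT-Veh 2 stood at 0.0167% and SOD1-Veh 2 at 0.297%.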

How the results depend on the processing

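The member counts of 17, 52 and, in the other 4 libraries, 1 moved by over 1.5 times only as follows among the alternatives run. With at least 400 genes they were 8 and 20 in SOD1-Veh. The 1 elsewhere became 0 with at least 20 rule-gene UMIs, without Pvalb and Tpm2, or with at least 2% of UMIs from the rule genes, and 2 with up to 40% or any share of mitochondrial UMIs. Removing Scrublet doublets left 16 and 48. In retained barcodes outside the members, 9 genes were called for SOD1-Veh against WT-Veh and 0 for SOD1-Nec against SOD1-Veh. DESeq2 called 15 and 17, and testing every gene with at least 1 UMI gave 100 and 14, of which 7 and 5 were muscle genes. Leaving out a library gave 1 to 441 and 0 to 71, of which 0 to 5 muscle genes in each. In the first comparison the 1 came without either SOD1-Veh replicate and the 441 without WT-Veh replicate 1.

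In barcodes under 200 genes, 51 and 260 genes were called, of which 16 and 17 were muscle genes. DESeq2 called 25 and 164, with 9 muscle genes in each; Tnnt3, Ckm, Myh4 and Pvalb were not among them. Testing every gene gave 155 in the first comparison. Barcodes under 100 genes gave 141 in the second and 7 muscle genes in each, and leaving out barcodes with at least 10 rule-gene UMIs, chosen after seeing the data, gave 8 in each. Leaving out a library gave 20 to 285 and 105 to 557, with 9 to 23 and 9 to 24 muscle genes; the lowest muscle counts came without SOD1-Veh replicate 2. The cause of these shifts was not tested. No result reversed. Of 318 values of single genes under alternatives, 286 kept their status, whether called or not called. Another 15 lost a call and 17 gained one, and 4 further values had no adjusted p in DESeq2.

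Same-numbered libraries did not deviate together (correlations of -0.22 to 0.11 over genes), so the numbers were not taken to pair libraries. With 2 libraries a group these correlations are a weak guide. Tables of the same number do list the same genes, and all 32 matches of shared barcodes between them held identical counts, against 0 of 49 between different numbers. What the numbers stand for was not tested. With the replicate number as a block, 9 and 0 genes were called in retained barcodes and 37 and 204 in barcodes under 200 genes, and Pvalb lost its call in SOD1-Nec against SOD1-Veh. Depth limits the absent genes: members hold 19949 and 49772 UMIs in all. Levels in members moved little without the largest barcode of each library, also chosen after seeing the data, with Tpm1 at 21870 in place of a mean of 23470 CPM. With 5 rule-gene UMIs as the limit, Tpm1 was at 19830 and Sod1 at 3748 CPM in place of 2695. That limit gave 18 and 53 members in SOD1-Veh 1 and 2. The barcode added in each library had 6 rule-gene UMIs, among 1796 UMIs in SOD1-Veh 1 and 15451 in SOD1-Veh 2.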
